A study of Mus musculus with 6 samples.

Results

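The genes of the OAS family and of PKR encode enzymes that sense double-stranded RNA, and their transcripts were followed here in cultured mouse NSPCs (neural stem and progenitor cells). The members were chosen by name, through the NCBI gene identifiers in the deposited tables, and are Oas1a, Oas1b, Oas1g, Oas2, Oas3, Oasl1, Oasl2 and Eif2ak2 (the gene for PKR), 8 of the 17254 genes with reads in any library.

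The series compared a pro-oxidant and an antioxidant treatment with untreated culture, in 6 libraries after 48 h: 2 of control cells, 2 of cells given 5 µM PQ (paraquat, a redox cycler that makes cells produce superoxide) and 2 of cells given 5 mM NAC (N-acetylcysteine, a thiol antioxidant). The labels give a PQ dose for PQ library 1 only, and the doses stated here are those of the study's RNA sequencing methods. All cultures grew in N2 medium with EGF and bFGF. The labels give the strain C57BL/6 and the genotype Ink/Ark knockout for control library 1 and PQ library 1 only, whereas the study's methods describe a single immortalised Ink/Arf-/- culture derived from neonates, in which stem cells, neuronal precursors and oligodendroglial progenitors are mixed. The same 2 libraries are labelled as column-kit RNA with Illumina preparation, and control library 2, PQ library 2 and both NAC libraries as TRIZOL RNA sequenced on BGISEQ-500, so that this labelled preparation can be compared within PQ and control but not within NAC. Expected counts (read counts shared out between genes by an estimate) summed to 9849392 and 10040827 in control, 10388731 and 9680436 in PQ, and 10698241 and 9907726 in NAC. Nothing in the labels says that the libraries of a group came from separate cultures, so p-values measure only the spread between these libraries, which may be technical. The study's reporting summary states that the RNA sequencing was replicated 2 times.

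OAS proteins are nucleotidyl transferases that, once bound to double-stranded RNA, join ATP into short oligoadenylates. The oligoadenylates act as second messengers of the antiviral response, and PKR is a kinase that double-stranded RNA activates to phosphorylate eIF2α and slow the start of translation. Type I interferon raises the transcription of these genes through the transcription factor complex ISGF3, and many of them also have a basal level without infection.

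The labelled cell type was checked against marker genes. Vim, an intermediate filament of neural progenitors, stood at 2171 and 2323 FPKM (fragments per unit of transcript length and of library total) in control, and Fabp7 at 800.5 and 741 FPKM. Nes (87.7 and 91.9 FPKM) and Sox2 (164 and 141 FPKM) were abundant as well, while Prom1 and Hes5 had at most 4 counts in any library. Olig1, of the oligodendrocyte lineage, stood at 320.4 and 414 FPKM in control, whereas Sox10 and Mog had at most 1 count. Cdkn2a, in the locus that the genotype names, had between 13.7 and 19.1 FPKM over the 6 libraries, and Cdkn2b between 8.14 and 13.4 FPKM; a gene-level value cannot show which exons the reads came from, so it does not check the genotype.

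Eif2ak2 was the most abundant member in control cells, and the levels, compared per length as FPKM, fell from there to near 0. The control means were 21.3 ± 0.679 FPKM (SD, n = 2) for Eif2ak2, 9.51 ± 0.87 for Oasl2 and 7.38 ± 1.74 for Oasl1. Oas1b followed at 1.66 ± 0.17 FPKM, below the non-member paralog Oas1c at 2.88 ± 0.057. Oas3 (0.435 ± 0.064 FPKM), Oas1a (0.2 ± 0.099), Oas2 (0.065 ± 0.049) and Oas1g (0.06 ± 0.085) closed the order, and of the neighbours in it only Oas2 and Oas1g overlapped in their control libraries. Over all 6 libraries, 4 members lay below a mean of 1 FPKM: Oas1a at 0.617, Oas3 at 0.402, Oas2 at 0.163 and Oas1g at 0.057. Those 4 were tested in a fit with no filter on low values, and the other 4 in the fit over the 11717 genes with a mean of at least 1 FPKM.

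**Figure D1:**
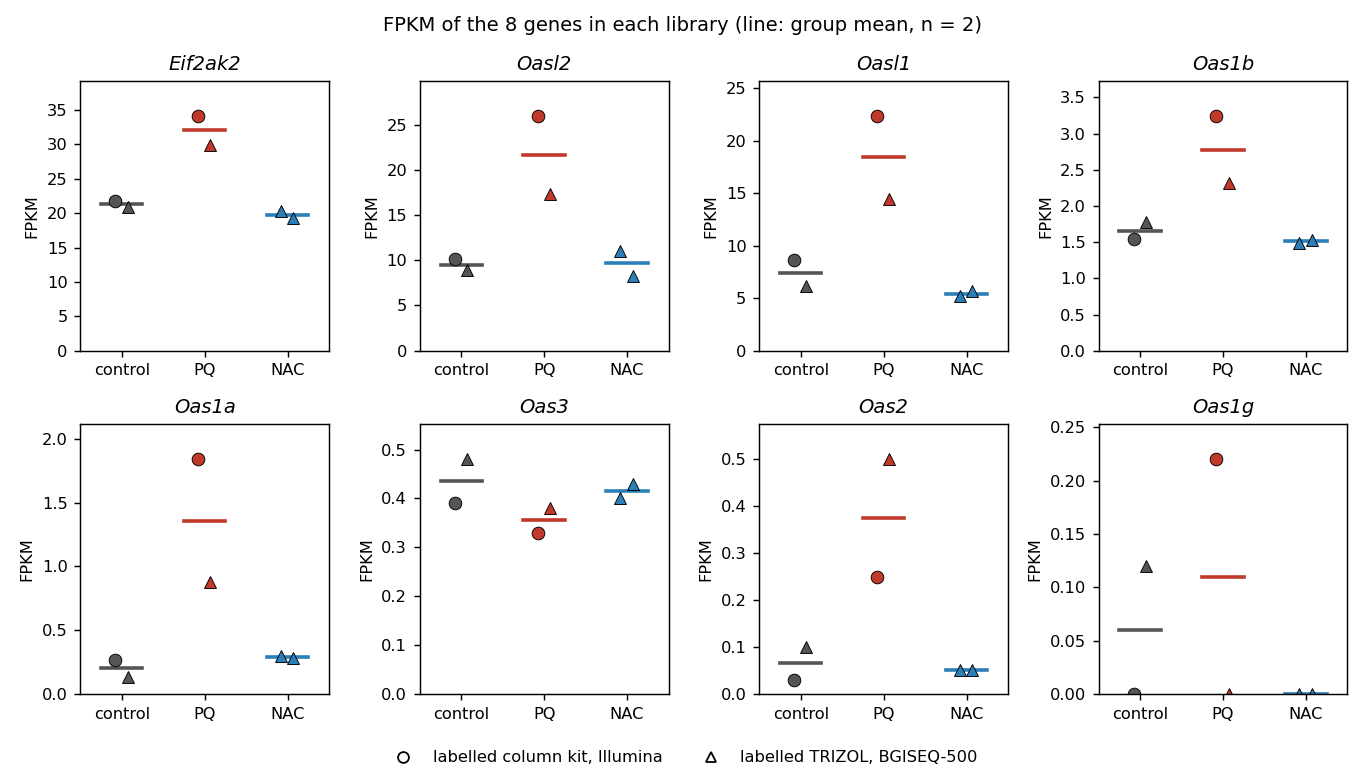
FPKM (y axis, from 0) of each of the 8 genes in the control, PQ and NAC libraries, with circles for the libraries labelled column kit and Illumina, triangles for those labelled TRIZOL and BGISEQ-500, and a line at each group mean of 2 libraries. Both PQ libraries lie above both control libraries for Eif2ak2, Oasl2, Oasl1, Oas1b, Oas1a and Oas2, and below them for Oas3.

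In PQ-treated NSPCs, 5 of the 8 members rose against control: Oasl1, Oasl2 and Eif2ak2 in the fit of genes above 1 FPKM, where 9.76% of all genes tested were called higher, and Oas1a and Oas2 in the fit with no filter, where 7.68% were. None fell. Oas1b was not called, Oas3 stood slightly lower in PQ, and Oas1g was too low for a fold. In the fit with no filter the same 5 of all 8 members were called. That fit gave Oasl1, Oasl2 and Eif2ak2 much smaller adjusted p than the filtered fit. For Oasl1 the edgeR adjusted p was 7.8e-16 with no filter and 0.000118 with the filter. For Oas1a it was 0.000105 with no filter and 0.00268 with the filter of edgeR's filterByExpr. The p-values of the fit with no filter are therefore read as less firm than their size. The calls of Oas1a and Oas2 rest on few reads and on single libraries, as described with each gene.

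Eif2ak2, on chromosome 17 (mm9 chr17:79251904-79281913, minus strand), encodes PKR itself. Its RefSeq promoter (250 bases before to 50 after the start site, GRCm38.p6) was searched on both strands for GAAANNGAAA, the core of the interferon-stimulated response element that ISGF3 binds, and 1 match lay just past the start site. The window at chr17:78882535-78882564 (GRCm38.p6, minus strand, bases 9 to 38 counted from the start site) is shown with that match in capitals.
Eif2ak2: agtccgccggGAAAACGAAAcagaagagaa
The core was present in 3.44% of the 32851 RefSeq promoters of this length, and a match describes letters, not a bound site.

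PKR transcripts stood at 21.8 and 20.8 FPKM in control, 34.1 and 30.0 FPKM in PQ, and 20.3 and 19.3 FPKM in NAC. Both PQ libraries lay above every control and NAC library, and the 3 groups did not overlap. The rise against control was 0.56 ± 0.10 on the log2 scale (SE), a 1.47-fold difference with an adjusted p of 0.000584 (edgeR, quasi-likelihood, adjusted over all genes tested by the method of Benjamini and Hochberg). It was of moderate size, ranking 702 from the top among the 11717 genes. Within the column-kit libraries PQ was 1.51-fold above control, and within the TRIZOL libraries 1.43-fold.

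The 4 kinases that phosphorylate eIF2α in mammals can be set side by side. Eif2ak1 (HRI, which responds to haem shortage), Eif2ak3 (PERK, of the endoplasmic reticulum) and Eif2ak4 (GCN2, which senses uncharged tRNA) served as companions. Eif2ak2 made up 38.9 and 34.9% of the summed FPKM of the 4 kinases in control, 44.3 and 39.9% in PQ, and 31.4 and 30.8% in NAC. Among the other 3 kinases only Eif2ak1 rose in PQ, by 0.39 ± 0.11 (log2, edgeR adjusted p = 0.0163), and it rose in NAC as well, by 0.43 ± 0.11 (edgeR adjusted p = 0.00755). Its PQ call was lost without control library 1 or without either PQ library, and its NAC call without NAC library 1. Eif2ak3 differed from control by 0.12 ± 0.11 and Eif2ak4 by 0.09 ± 0.11 in PQ, and neither was called. The NAC difference of Eif2ak2 from control, -0.15 ± 0.10, was not called.

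Oasl2 and Oasl1, the OAS-like genes, lie next to each other on chromosome 5 (mm9 chr5:115346943-115362243 and chr5:115373249-115387924, both on the plus strand). In the mouse, Oasl2 keeps synthetase activity, while Oasl1 lacks it and is known for limiting the translation of Irf7 mRNA. Neither promoter held the GAAANNGAAA core. Oasl1 held 3 matches to AANNGAAA, a shorter IRF motif that lies inside the core and occurs in 23.9% of all promoters, and they are in capitals in its window at chr5:114923053-114923124 (GRCm38.p6, plus strand, bases -187 to -116). The first of them, TTTCAGTT, is a match on the opposite strand and is printed as the reverse complement of the motif.
Oasl1: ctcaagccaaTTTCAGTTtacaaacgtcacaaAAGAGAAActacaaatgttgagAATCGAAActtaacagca
Oasl2 held no match to either motif, nor to TTCNNNGAA, the GAS (gamma-activated site) motif present in 8.3% of promoters, and the absence says only that these letters are not in this window.

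Oasl2 transcripts stood at 10.1 and 8.89 FPKM in control, 25.9 and 17.3 FPKM in PQ, and 11.02 and 8.3 FPKM in NAC. The PQ libraries were the highest, and control and NAC overlapped. Against control the rise was 1.16 ± 0.16 (log2, SE), or 2.23-fold, with an edgeR adjusted p of 8.41e-05. Oasl1 transcripts stood at 8.61 and 6.15 FPKM in control, 22.3 and 14.5 FPKM in PQ, and 5.16 and 5.71 FPKM in NAC. Here the NAC libraries lay below both control libraries, and the PQ libraries above them. Oasl1 rose by 1.29 ± 0.19 (log2), or 2.45-fold, with an edgeR adjusted p of 0.000118, which ranked 87 from the top of 11717 genes, and Oasl2 ranked 119. In both genes PQ library 1 was higher than PQ library 2. Without PQ library 1 the log2 rise was 0.85 for Oasl2 (edgeR adjusted p = 0.0036) and 0.96 for Oasl1 (edgeR adjusted p = 0.00543), and the calls held.

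The OAS synthetase genes proper lie in a cluster on chromosome 5, from Oas2 (mm9 chr5:121180342-121199862, minus strand) and Oas3 (mm9 chr5:121203107-121227670, minus strand) to the Oas1 paralogs, among them Oas1b (mm9 chr5:121262644-121274186, plus strand), Oas1g (mm9 chr5:121326151-121337622, minus strand) and Oas1a (mm9 chr5:121346265-121357536, minus strand). The Oas1 genes are near copies of one another. The aligned RefSeq promoters of Oas1a and Oas1g were identical at 261 bases, 88.8% of the aligned bases, and their windows around the core are given to show that they share it letter for letter, each with 2 overlapping matches in capitals (Oas1a at chr5:120907520-120907555 and Oas1g at chr5:120887606-120887641, GRCm38.p6, minus strand). Oas3 held 1 match, 75 to 66 bases before the start (chr5:120777715-120777744, GRCm38.p6, minus strand).
Oas1a: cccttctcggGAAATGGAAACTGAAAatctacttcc
Oas1g: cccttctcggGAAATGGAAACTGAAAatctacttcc
Oas3: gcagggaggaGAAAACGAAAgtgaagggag
Promoters were searched for 6 of the 8 members; the other members are Oas1b and Oas2.

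Oas1a, an active synthetase, had 5 and 2.52 expected counts in control, 35.9 and 16 in PQ, and 6 and 5.15 in NAC. Both PQ libraries exceeded every other library. The fitted rise was 2.61 ± 0.57 (log2, SE), or 6.11-fold, with an edgeR adjusted p of 0.000105 in the fit with no filter. Without PQ library 1 the log2 rise was 1.99 and no longer called (edgeR adjusted p = 0.147), nor was it called by limma on log2(FPKM + 1) or log2(FPKM + 0.1) (adjusted p = 0.063 and 0.0527), and over all alternatives that gave a value the adjusted p ran from 0.000105 to 0.147. Oas1g, in contrast, had 0 and 2.48 expected counts in control, 4.46 and 0 in PQ, and 0 in both NAC libraries. No difference in Oas1g was detectable at this depth. Because the counting could split reads between such close copies, both values are uncertain; with the counts of Oas1a and Oas1g summed, an alternative chosen after seeing the data, the log2 rise in PQ was 2.41 ± 0.54 (edgeR adjusted p = 0.00411).

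Oas1b, whose product in most laboratory strains is truncated and which RefSeq lists as a transcribed pseudogene, had 27.9 and 32.9 expected counts in control, 61.9 and 41.3 in PQ, and 29.4 and 27.8 in NAC. The PQ libraries were the highest, but the difference from control, 0.71 ± 0.28 (log2), missed the threshold (edgeR adjusted p = 0.0825). All 6 of its counts were fractional, the mark of reads shared out between genes, as were all 6 of Eif2ak2 and of Oas3. When the counts of all Oas1 paralogs were summed into 1 gene, they came to 96.9 and 105 in control, 199 and 129 in PQ, and 74.4 and 83.0 in NAC. This sum was 0.65 ± 0.19 higher in PQ (log2, edgeR adjusted p = 0.0186), and its PQ library 1 stood well above its PQ library 2. Oas1c, the most abundant of the paralogs outside the members, differed by 0.32 ± 0.22 (log2, edgeR adjusted p = 0.346). Oas1d and Oas1e were listed in no library, and Oas1f and Oas1h had at most 3 counts in each.

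Oas2, which carries a duplicated synthetase unit, had 1 and 4 expected counts in control, 10 and 19 in PQ, and 2 in each NAC library. PQ was higher in both libraries, on very few reads. The fitted rise was 2.45 ± 0.79 (log2), with an edgeR adjusted p of 0.0174 in the fit with no filter. Without control library 2 the fitted rise was larger, but the control library left had 1 count, so no fold is given for that fit. The rise of Oas2 was not called without control library 1 (log2 1.80) or without PQ library 2 (log2 1.83). Nor was it called by limma on either FPKM scale (adjusted p = 0.0952 and 0.0862), and the adjusted p over the alternatives ran from 0.0174 to 0.336. Oas3, the longest of the synthetases, had 18.3 and 22.9 expected counts in control, 16.3 and 17.5 in PQ, and 20.6 and 20.1 in NAC. Oas3 was the member that moved the other way, by -0.31 ± 0.40 (log2, edgeR adjusted p = 0.712), a difference smaller than its error. Its promoter holds the core that the Oas1a and Eif2ak2 promoters hold. The promoter of Oas1c, which was not called in PQ against control, holds it too, and the Oasl2 promoter, whose gene rose, does not. Of the member promoters searched, only those of Oas1a and Eif2ak2 held the GAS motif. What these motifs have to do with the values was not tested.

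**Figure D2:**
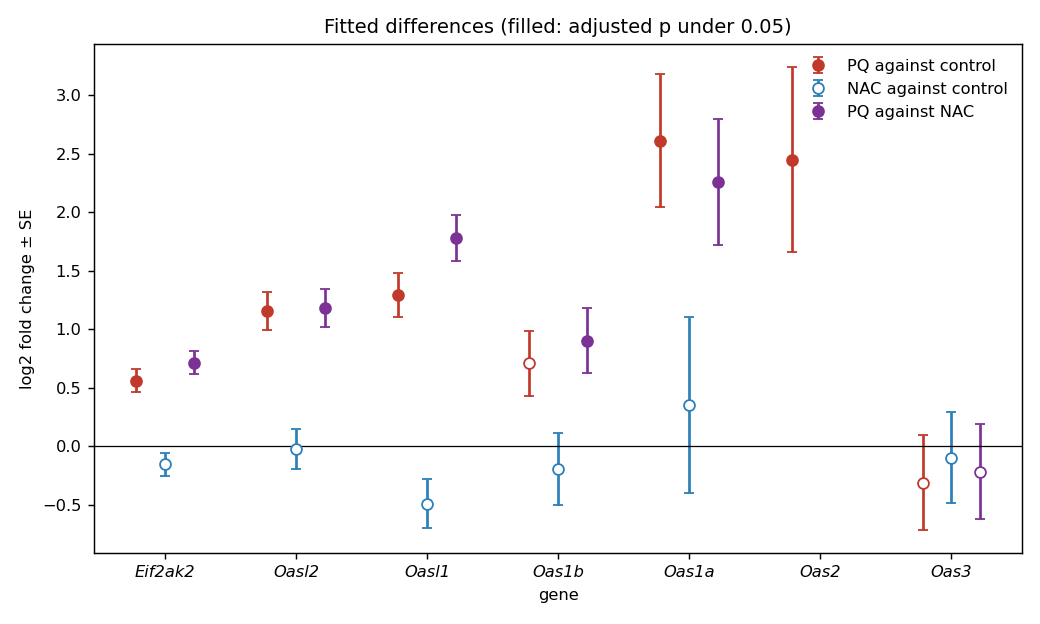
Fitted log2 fold change (y axis) with its standard error for 7 members in PQ against control, NAC against control and PQ against NAC, with filled symbols for an adjusted p under 0.05 in edgeR. Oas1g is not drawn because its control and NAC libraries did not exceed 3 counts, nor Oas2 in the comparisons with NAC, where it had 2 counts in each library; the PQ symbols lie above 0 except for Oas3.

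Summed over the OAS members and the other Oas1 paralogs, nearly all Oas1c, OAS transcripts stood at 23.8 and 20.6 FPKM in control, 58.2 and 39.1 FPKM in PQ, and 20.0 and 18.5 FPKM in NAC. Oasl1 and Oasl2 together made up 73.1 to 82.8% of this sum in the 6 libraries, so the family total followed the OAS-like pair. The Oas1 genes (Oas1c included), Oas2 and Oas3 added 5.07 and 5.53 FPKM in control, 9.99 and 7.33 FPKM in PQ, and 3.86 and 4.5 FPKM in NAC. Both PQ libraries exceeded every control and NAC library in each of these sums.

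**Figure D3:**
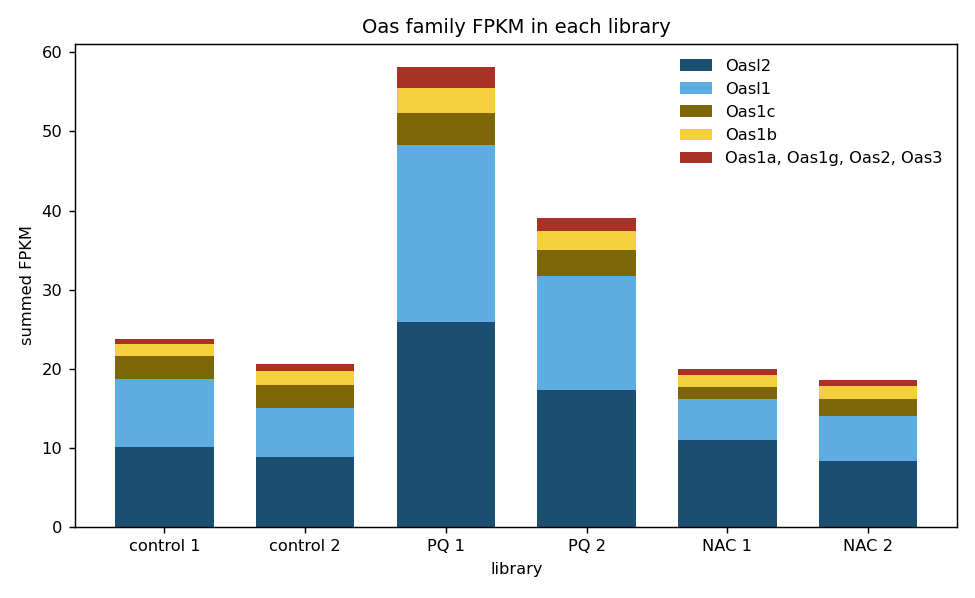
FPKM summed over the Oas family, the non-member Oas1c included (y axis, from 0), in each of the 6 libraries, stacked by gene. Oasl2 and Oasl1 fill most of every bar, and the bars of PQ 1 (58.2 FPKM) and PQ 2 (39.1 FPKM) stand above the other 4.

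PQ against control could also be read within each labelled preparation, with 1 library of each kind and so with no test. In the column-kit libraries PQ stood above control by 1.31 for Oasl2, 1.32 for Oasl1 and 1.00 for Oas1b, as differences of log2(CPM + 0.1). In the TRIZOL libraries the same differences were 0.95, 1.22 and 0.36. For Oas3 they were -0.27 and -0.33. Oas1a stood 2.51 higher in the column-kit pair and Oas2 2.05 higher in the TRIZOL pair. In their other pair both stood higher too, but the control library did not exceed 3 counts, so no difference is given. For these 6 members and for Eif2ak2 the direction was the same in both preparations, as it was for 66.4% of the 11717 genes. Oas1a, Oas2 and Oas3 lie below a mean of 1 FPKM and are not among those genes. Oasl1, Oasl2, Eif2ak2, Oas1a and Oas2 were called higher from these same libraries, so their shared direction is no separate support. Oasl2, Oasl1, Oas1b and Eif2ak2 lay further from 0 in the column-kit libraries, and Oas3 in the TRIZOL libraries. Oas1g went up in the first pair (0 to 4.46 counts) and down in the second (2.48 to 0), on too few reads for a direction. Of the 11717 genes, 56.5% lay further from 0 in the column-kit libraries, and a difference between the members and all genes was not tested.

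**Figure D4:**
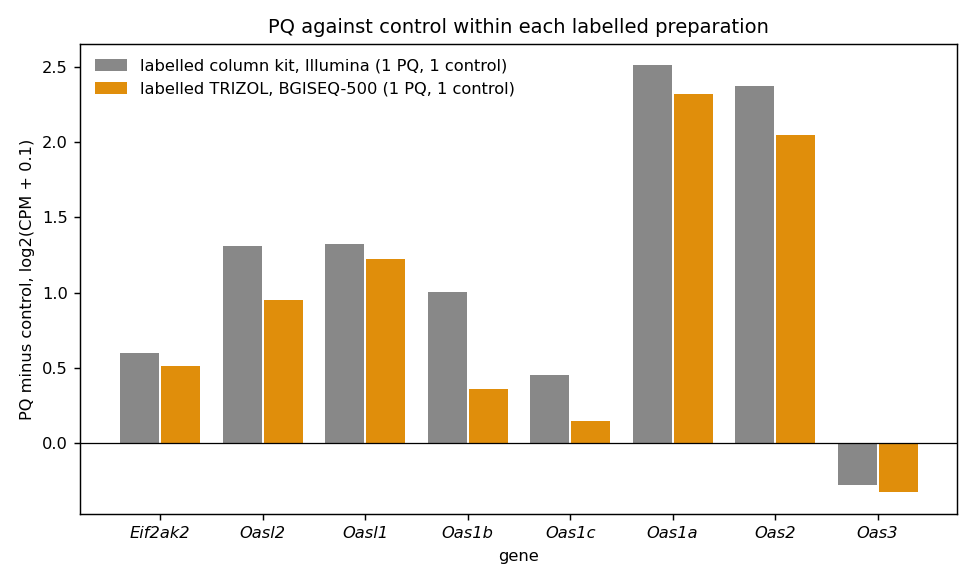
PQ minus control as a difference of log2(CPM + 0.1) (y axis) for single pairs of libraries labelled column kit and Illumina (grey) or TRIZOL and BGISEQ-500 (orange). Each of the 7 members drawn, and Oas1c, keeps 1 direction in both pairs. The column-kit control of Oas2 and the TRIZOL control of Oas1a did not exceed 3 counts, so those heights are not exact. Oas1g is not drawn because neither of its TRIZOL libraries exceeded 3 counts.

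NAC, compared with control to ask what an antioxidant does to the same genes, changed 0 of the 8 members by edgeR, where 18.7% of the genes above 1 FPKM and 15.3% of the genes in the fit with no filter were called in either direction. Oasl1 came closest, at -0.49 ± 0.21 (log2, edgeR adjusted p = 0.118, unadjusted p = 0.0319), and it was the 1 member with an unadjusted p under 0.05; DESeq2 and limma called 0 members as well. Without control library 2 it was called lower (edgeR log2 -0.72, adjusted p = 0.0163), and likewise in the fit with no filter (edgeR adjusted p = 0.0259). Without control library 1 it differed by -0.22 (edgeR adjusted p = 0.582), and with labelled preparation as a covariate by -0.19 (edgeR adjusted p = 0.566). Oasl2 differed by -0.02 ± 0.17 and Oas1b by -0.19 ± 0.31. Oas1a differed by 0.35 ± 0.75, less than its error, and Oas3, whose NAC libraries lay between the control libraries, by -0.10 ± 0.39.

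PQ against NAC set the oxidant against the antioxidant, and 6 of the 8 members were higher in PQ: Eif2ak2, Oasl2, Oasl1 and Oas1b among the genes above 1 FPKM, where 16.0% of all genes were called higher, and Oas1a and Oas2 in the fit with no filter, where 12.5% were. Oasl1 differed most among the abundant members, by 1.78 ± 0.19 (log2, edgeR adjusted p = 1.52e-06), or 3.43-fold. Oasl2 followed at 1.18 ± 0.16 (edgeR adjusted p = 1.99e-05), and Eif2ak2 at 0.71 ± 0.10 (edgeR adjusted p = 2.1e-05). This comparison shares its PQ libraries with the one against control, so the calls are not independent of each other. Oas1a stood 2.26 ± 0.53 higher (log2, edgeR adjusted p = 0.000224), a call lost without PQ library 1 (1.63, edgeR adjusted p = 0.149) and with labelled preparation as a covariate (1.67, edgeR adjusted p = 0.0663). Oas1b stood 0.90 ± 0.28 higher (edgeR adjusted p = 0.0193), a call lost without PQ library 1 (0.65, edgeR adjusted p = 0.23), without NAC library 1 (0.88, edgeR adjusted p = 0.0964) and without NAC library 2 (0.93, edgeR adjusted p = 0.0711), with labelled preparation as a covariate (edgeR adjusted p = 0.0802) and by DESeq2 (adjusted p = 0.0978). Oas2 is given no fold, because both NAC libraries had 2 counts, and its call (edgeR adjusted p = 0.00361) was lost without PQ library 2 (edgeR adjusted p = 0.176), without NAC library 1 (edgeR adjusted p = 0.0585), by DESeq2 (adjusted p = 0.0636) and by limma on log2(FPKM + 1) (adjusted p = 0.0523). Oas3 differed by -0.22 ± 0.40. No NAC library carries the column-kit label, and with labelled preparation as a covariate 4 of the 8 members were called higher by edgeR.

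Proteins that act on PKR were followed as a list of 6 genes: Prkra and Tarbp2, which bind it directly, Dnajc3, an inhibitor, Adar, which edits double-stranded RNA, and Stau1 and Nck1. In PQ, 0 of the 6 rose by edgeR (also 0 at an unadjusted p under 0.05 and 0 by DESeq2) and 0 fell. Of all genes tested, 9.76% were called higher and 9.45% lower. The median log2 difference of the list was 0.16, beside -0.001 over all genes tested. In NAC, Dnajc3 rose by 0.41 ± 0.11 (edgeR adjusted p = 0.0139), a call lost without NAC library 1 and with labelled preparation as a covariate, and the other 5 were not called. Of the genes for eIF2 and its phosphatase, 2 of 8 fell in PQ, with a median of -0.22: Eif2s2, the beta subunit, by -0.49 ± 0.14 (edgeR adjusted p = 0.0181), and Ppp1r15b, which targets the phosphatase to eIF2α, by -0.29 ± 0.10 (edgeR adjusted p = 0.0383). Both fell in NAC as well, by -0.82 ± 0.14 and -0.28 ± 0.10, with edgeR adjusted p of 0.000299 and 0.0497. Control library 1 stood well above control library 2 for Eif2s2, and without it the difference was -0.15 in PQ (edgeR adjusted p = 0.42) and -0.48 in NAC (edgeR adjusted p = 0.00209); the PQ call was also lost without PQ library 1 (edgeR adjusted p = 0.165). The PQ call of Ppp1r15b was lost without control library 1, without either PQ library and with labelled preparation as a covariate. Its NAC call was lost with that covariate too (edgeR adjusted p = 0.162), and with any 1 library left out except control library 2. Eif2s1, which encodes the subunit that PKR phosphorylates, differed from control by 0.01 ± 0.09 in PQ. Pde12, which degrades the oligoadenylates, differed from control by 0.00 ± 0.13 in PQ and by -0.36 ± 0.13 in NAC (edgeR adjusted p = 0.0567).

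Upstream of the members, the genes of the type I interferon signal were read as a list of 7. Ifnb1, the interferon itself, had at most 1 count in any library. Of the other 6, 2 rose in PQ and none fell, where 9.76% of all genes tested were called higher, with a median of 0.22 beside -0.001 over all genes tested: Irf9 by 0.61 ± 0.14 (edgeR adjusted p = 0.00363) and Stat2 by 0.49 ± 0.11 (edgeR adjusted p = 0.00484). Without PQ library 1 neither was called (0.45 and 0.37, edgeR adjusted p = 0.112 and 0.12). The receptor genes Ifnar1 and Ifnar2 and the kinase genes Jak1 and Tyk2 were not called in PQ or in NAC against control.

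**Figure D5:**
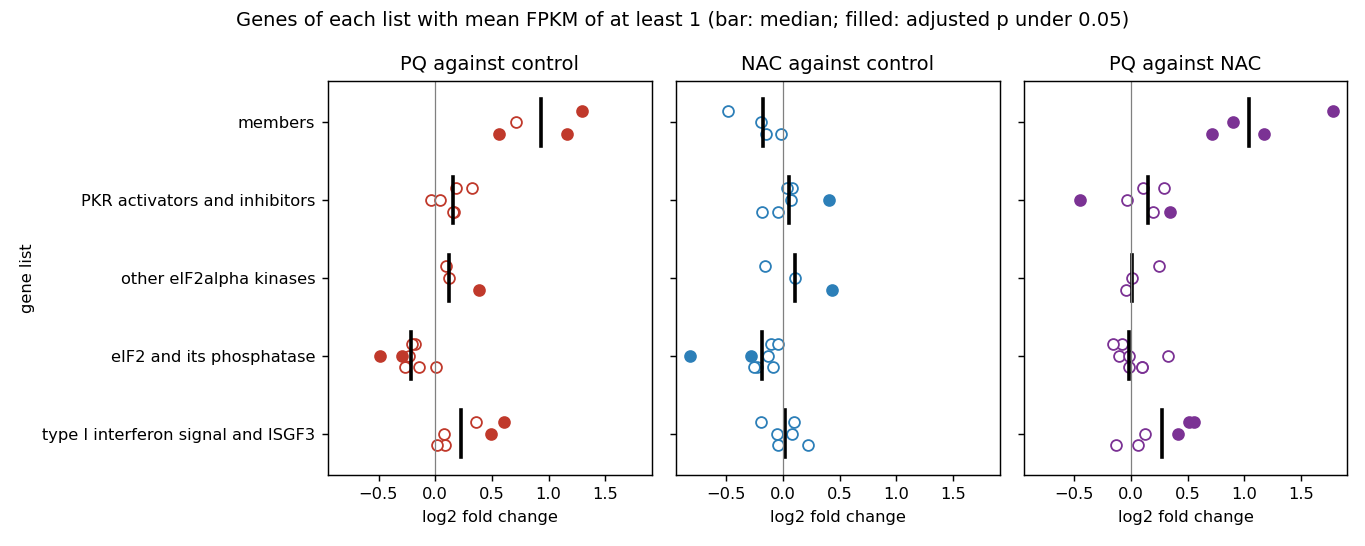
Log2 fold change (x axis) of the genes with a mean of at least 1 FPKM in the members and in 4 companion lists, for PQ against control, NAC against control and PQ against NAC, with filled symbols for an adjusted p under 0.05 in edgeR and a bar at the median of each list. In PQ against control the median is 0.93 for the 4 members drawn and 0.22 for the 6 interferon signal genes.

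Genes next to the members were read for comparison. Of the 3 nearest protein-coding genes on each side of the Oas cluster, of the Oasl pair and of Eif2ak2, 12 had a mean of at least 1 FPKM, and of these 0 were called higher in PQ by edgeR and 1 lower, where 9.76% of all genes tested were called higher and 9.45% lower. The lower gene was Rpl6, by -0.28 ± 0.09 (adjusted p = 0.03), a call lost without either PQ library, without control library 2 and with labelled preparation as a covariate. DESeq2 likewise called 0 of the 12 higher, and of those that lay higher 2, Dtx1 and Ankrd13a, had an unadjusted p under 0.05 in edgeR. Dtx1, beside the Oas cluster, came closest to a rise, at 0.60 ± 0.22 (edgeR adjusted p = 0.0616, unadjusted p = 0.0129). Ankrd13a and Sppl3, on either side of the Oasl pair, differed by 0.26 ± 0.11 and -0.05 ± 0.11, and neither was called. Beside Eif2ak2, Heatr5b differed by 0.22 ± 0.12 and Strn by -0.20 ± 0.13.

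The genes whose pattern over the 6 libraries was most like that of Eif2ak2 were Stk32a, Arl4c, Denn2b, Tmem254b and Manba, with a root mean square difference of 0.042 to 0.057 in log2 CPM centred on control. Among the members, Oas1b ranked 137 by this measure, at 0.139, Oasl2 4699, at 0.371, and Oasl1 8346, at 0.487. The measure scores the size of a difference as well as its direction. Oasl2 and Oasl1 rose in the same PQ libraries by more than Eif2ak2, so a low rank does not mean an opposite pattern. Closest to Oasl2 were Cd68, Trim30a, Galk2, Lgals3bp and Sh3bp2, at 0.15 to 0.204, and Oasl1 ranked 84, at 0.319, Oas1b 89, at 0.321, and Eif2ak2 182, at 0.371.

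Markers of other cell types were measured beside the members, since the culture is mixed. The microglia and macrophage list of 10 genes summed to 3.2 and 3.03 FPKM in control, 5.72 and 5.02 FPKM in PQ, and 5.92 and 4.76 FPKM in NAC, sums with no test. P2ry12, its most abundant gene, rose in NAC by 1.18 ± 0.26 (log2, edgeR adjusted p = 0.00329), a call lost without NAC library 1 (0.86, edgeR adjusted p = 0.0896), and in PQ differed by 0.55 ± 0.28 (edgeR adjusted p = 0.191), not called. Aif1, Tmem119, Csf1r, Ptprc, Tyrobp and C1qa, 6 genes of the list, did not exceed 3 counts in any library. Cd68, a lysosomal gene of that list, had 11 and 10 counts in control, 27 and 18 in PQ, and 14 and 11 in NAC, and its difference in PQ, 1.05 ± 0.42 (log2), was not called (edgeR adjusted p = 0.0934). The fibroblast and pericyte list of 5 genes summed to 0.51 and 0.52 FPKM in control, 2.24 and 0.98 FPKM in PQ, and 0.97 and 1.09 FPKM in NAC, with Lum and Pdgfrb at no more than 3 counts. Dcn, its most abundant gene, had 5 and 1 counts in control, 24 and 8 in PQ, and 6 and 11 in NAC, and it rose in PQ by 2.31 ± 0.70 (log2, edgeR adjusted p = 0.00921 in the fit with no filter), a call lost without PQ library 1 (edgeR adjusted p = 0.563) and without control library 2 (edgeR adjusted p = 0.181). The endothelial list of 5 genes summed to 0.22 to 0.62 FPKM in the 6 libraries. The part of these cells in the members' levels was not tested.

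Among the cells the culture is described to hold, markers moved in both directions. In PQ, Nes rose by 0.34 ± 0.09 (log2, edgeR adjusted p = 0.00862) and Sox2 fell by -0.36 ± 0.10 (edgeR adjusted p = 0.0138). Both calls were lost without either PQ library, and that of Sox2 also without control library 1 (-0.23, edgeR adjusted p = 0.15). In NAC, 3 of the 6 NSPC markers tested fell, where 9.64% of all genes tested were called lower: Vim by -0.75 ± 0.08 (edgeR adjusted p = 3.77e-06), Sox2 by -0.31 ± 0.10 (edgeR adjusted p = 0.0271) and Nes by -0.28 ± 0.09 (edgeR adjusted p = 0.0297). Pax6, Fabp7 and Msi1, at 0.10, 0.11 and 0.07, were not called. The NAC call of Vim held with any 1 library left out. That of Nes was lost each time, and that of Sox2 without control library 1 or either NAC library. With labelled preparation as a covariate, the NAC calls of Nes and Sox2 were lost (edgeR adjusted p = 0.0938 and 0.161) and that of Vim held. Vim stood 0.94 ± 0.08 higher in PQ than in NAC (edgeR adjusted p = 1.58e-07). The oligodendrocyte lineage list summed to 652 and 753 FPKM in control, 768 and 666 FPKM in PQ, and 816 and 926 FPKM in NAC. The astrocyte list summed to 110.3 and 96.6 FPKM in control, 78.1 and 79.7 FPKM in PQ, and 135 and 134 FPKM in NAC, and the neuron list, nearly all Map2, to 38.4 and 36.3, 34.0 and 35.1, and 65.5 and 59.0 FPKM. Single genes of these lists went against the sums. Aldh1l1, an astrocyte gene, rose in PQ by 1.17 ± 0.26 (edgeR adjusted p = 0.0035, not called without PQ library 1), whereas Slc1a3, the bulk of the astrocyte sum, fell by -0.47 ± 0.09 (edgeR adjusted p = 0.00158). In NAC, Tubb3 fell by -2.27 ± 0.46 (edgeR adjusted p = 1.73e-05 in the fit with no filter), whereas Map2 rose by 0.77 ± 0.10 (edgeR adjusted p = 1.14e-05). Tubb3 also fell in PQ, by -1.65 ± 0.43 (edgeR adjusted p = 0.00161 in the fit with no filter), a call lost without control library 1 or PQ library 2. In whole cultures, a different share of cells of a type and a different amount of RNA per cell cannot be told apart.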

How the data were processed

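The authors deposited, per library and gene, an expected count, an FPKM value and a transcript length; genes without reads were taken as 0. The submitters' processing notes name mm9, TopHat2 2.0.11 and Cufflinks 2.1.1 for control library 1 and PQ library 1, and mm10, HISAT2 2.0.4, Bowtie2 2.2.5 and RSEM for the rest, whereas all tables hold columns of the RSEM type; the study's methods name a stranded TruSeq mRNA kit, but the use of strand in counting is not given in the sources used here. Symbols (99.7% of genes) and promoters came from RefSeq GRCm38.p6, gene positions from GENCODE vM1 on mm9. Expected counts were rounded and tested with edgeR 4.0.16 in R 4.3.3 (TMM, quasi-likelihood test, no covariate, all 6 libraries, threshold 0.05). No fold was given where a group's libraries did not exceed 3 counts. The same held in the text for pairs of single libraries with such a control. Replicates of a group differed by more than sampling noise (chi-square per degree of freedom 7.26 in control, 4.32 in PQ, 4.96 in NAC). The members and lists were chosen with earlier results of these data known. Genes named are the members, the lists, the neighbours and the nearest patterns; some genes of the lists are not reported here. Scripts were tested on simulated data. Alternatives were DESeq2 1.42.0 and its size factors, limma 3.58.1 on log2 FPKM with a pseudocount of 1 or 0.1, other filters, the labelled preparation as a covariate, only the libraries compared, each library left out, and summed Oas1 counts.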

Additional observations from a re-analysis of the deposited data

How the results depend on the processing

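The calls of Oasl1, Oasl2 and Eif2ak2 as higher in PQ, against control and against NAC, held under each of the 14 alternatives run, with log2 differences from control of 0.96 to 1.56, 0.85 to 1.41 and 0.48 to 0.64. The count of members changed in PQ against control was 5, and 3 by DESeq2, which gave no adjusted p for Oas1a and Oas2, 3 by limma on log2(FPKM + 1) and on log2(FPKM + 0.1), 4 with filterByExpr, and 4 to 5 with 1 library left out. In NAC against control it was 0, and 1 (Oasl1) with no filter on low values; leaving out 1 library gave 0 to 1. In PQ against NAC it was 6, and 4 by DESeq2 and with labelled preparation as a covariate, 5 with filterByExpr and by limma on log2(FPKM + 1), and 4 to 6 with 1 library left out. The count of all genes changed, with 1 library left out, ran from 866 to 2206 in PQ against control, from 1286 to 2126 in NAC against control and from 2343 to 4207 in PQ against NAC; the lone library left in a group was then assumed to vary like the others. No result reversed past the threshold. The filter of edgeR's filterByExpr left no value for Oas2. The labels carry no replicate numbers to pair libraries by; the fit with labelled preparation as a covariate, which blocks PQ and control by preparation, called 5 members in PQ against control. Depth limits Oas1a, Oas1g, Oas2 and Oas3, with at most 35.9 counts in any library; counts shared out between Oas1 paralogs and genes on the opposite strand cannot be told apart.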
